A study of Mus musculus with 3 samples.

Results

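The transforming growth factor beta (TGF-beta) pathway was described through 10 genes, chosen by symbol: the ligand gene Tgfb1, the receptor genes Tgfbr1, Tgfbr2 and Tgfbr3, the signal transducers Smad2, Smad3, Smad4 and Smad7, and the repressor genes Ski and Skil. All 10 were among the 16129 genes listed. Levels came from RNA sequencing of type 2 innate lymphoid cells (ILC2s), which lack rearranged antigen receptors and release type 2 cytokines. The cells were isolated by flow cytometry from lung tissue of mice of wild-type genotype that had received the alarmin IL-33 in vivo. The 3 libraries form 1 group. Cells without IL-33 were not analysed here, and genes were therefore compared with each other within libraries, with nothing said on the response to IL-33. The sources used here give neither strain, age and sorting gates nor whether separate animals were used, so the spread between libraries may be technical.

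TGF-beta is secreted in a latent form, bound to its own propeptide, and is released by integrins and proteases. The active ligand binds the type II receptor, encoded by Tgfbr2, which recruits and phosphorylates the type I receptor, encoded by Tgfbr1. The type I receptor then phosphorylates the receptor-regulated Smads Smad2 and Smad3, which enter the nucleus with the common partner Smad4. Smad7 blocks the type I receptor, and Ski and Skil (SnoN) repress Smad complexes on DNA. In the lung and its lymphocytes the pathway is known for restraining immune responses and for the retention of lymphocytes in epithelium.

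The libraries held between 19883728 and 19976129 estimated reads, and the 10 genes took between 0.122% and 0.128% of all transcripts. All 12 ILC2 marker genes were detected, that is, they reached at least 1 TPM (transcripts per 1000000) in each library. TPM is a level per length of transcript, so it can be compared between genes. Of all listed genes, 67.3% were detected, and the marker counts are to be read beside that share. Among markers of other cells, 9 of 11 listed macrophage and monocyte genes were detected, as were 3 of 8 T cell genes, 1 of 5 B cell genes, 2 of 6 NK and ILC1 genes, 0 of 6 fibroblast genes, 2 of 6 endothelial genes, 4 of 6 epithelial genes, 1 of 5 platelet genes and 2 of 4 listed eosinophil and mast cell genes. The summed level of the macrophage list was 402, 394 and 551 TPM in replicates 1, 2 and 3, led by Chil3 (375 ± 74.7, mean TPM ± SD, n = 3, as in all such values here).

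The sequences just upstream of the ligand gene and its pair of signalling receptor genes are shown because these 3 genes form the first step of the pathway and their levels are compared with one another. Each is the 250 bases before the annotated start, from RefSeq on GRCm38.p6, written 5′ to 3′ on the strand of the gene. Capitals mark GC boxes (GGGCGG, the site of Sp1-type factors) and CAGA elements (CAGAC, a short Smad-binding word), each on either strand. The windows are chr7:25686752-25687001 on the plus strand for Tgfb1, chr9:116175364-116175613 on the minus strand for Tgfbr2 and chr4:47352972-47353221 on the plus strand for Tgfbr1.
Tgfb1: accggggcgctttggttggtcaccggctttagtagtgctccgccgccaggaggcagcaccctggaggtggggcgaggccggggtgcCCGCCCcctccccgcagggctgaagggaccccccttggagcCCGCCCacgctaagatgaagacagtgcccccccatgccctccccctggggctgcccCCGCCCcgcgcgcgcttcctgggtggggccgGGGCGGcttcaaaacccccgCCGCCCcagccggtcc
Tgfbr2: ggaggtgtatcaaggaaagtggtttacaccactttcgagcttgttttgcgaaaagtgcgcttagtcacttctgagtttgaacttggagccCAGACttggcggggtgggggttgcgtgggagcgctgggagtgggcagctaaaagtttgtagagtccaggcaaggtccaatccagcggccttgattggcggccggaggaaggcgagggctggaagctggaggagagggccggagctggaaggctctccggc
Tgfbr1: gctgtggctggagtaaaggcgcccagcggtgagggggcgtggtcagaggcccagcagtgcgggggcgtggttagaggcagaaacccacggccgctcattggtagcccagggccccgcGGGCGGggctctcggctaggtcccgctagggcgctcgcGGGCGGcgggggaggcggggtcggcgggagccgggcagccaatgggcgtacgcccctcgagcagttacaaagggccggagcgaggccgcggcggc

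The Tgfb1 window held 5 GC boxes and a GC content of 75.2%, the Tgfbr1 window held 2 and 74.8%, and the Tgfbr2 window held 0 and 58.4%. Over the same 250 bases of all 32851 promoters in the table, 32.7% held a GC box, and the median GC content was 52.4%. The CAGA element occurred 1 time in the Tgfbr2 window and in neither of the others printed, against 42.2% of all windows. The second annotated start of Tgfbr1, at chr4:47385966-47386215 on the plus strand, differed from the first, with 1 CAGA element, 0 GC boxes and a GC content of 52.8%. The longer Smad-binding palindrome GTCTAGAC, which contains the shorter GTCT word on both strands, was in none of these 3 windows, nor in those of Ski, Smad3 or the second Tgfbr1 start, and was in 0.167% of all windows. Ski had the highest GC content of the members with an entry, 87.6% with 5 GC boxes, and Smad3 had 69.2% with 2. A TATA box (TATAAA) was in none of these 6 windows and in 12.4% of all. These matches describe letters in a window and were not tied to any level.

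Of the 10 genes, 9 were detected, beside 67.3% of all listed genes. Another count took genes with a mean of at least 100 TPM: 4 of the 10 genes did, beside 10.3% of all listed genes. Their median level was 51.3 TPM, beside 11.2 for all listed genes and 28.2 for all detected genes. The order from the top was Tgfb1, Tgfbr2, Skil, Ski, Smad3, Smad7, Smad4, Tgfbr1, Smad2 and Tgfbr3. Neighbours in this order had ranges over the libraries that did not overlap, with the exception of Smad4 and Tgfbr1, which lay 0.89, 0.55 and 0.47 TPM apart. The smallest step among the others was from Smad3 to Smad7, a ratio of 1.22, and the largest was from Smad2 to Tgfbr3, a ratio of 22.8.

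**Figure D1:**
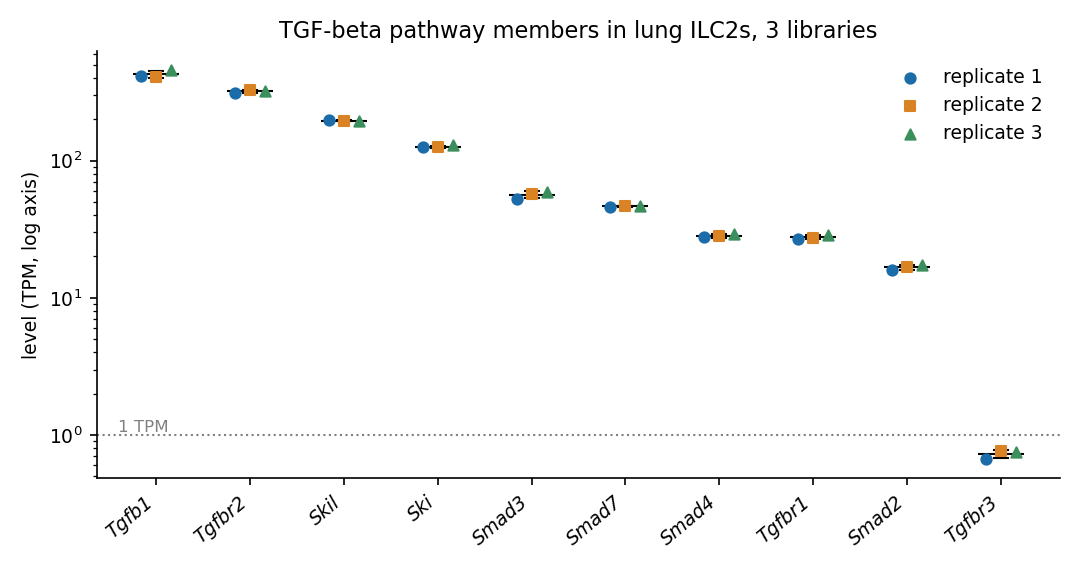
Level of the 10 genes in TPM (log axis), with a point for each of the 3 libraries and a bar for the mean with its SD. The 10 genes run from 426 TPM for Tgfb1 to 0.73 TPM for Tgfbr3, the gene below the dotted line at 1 TPM.

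The ligand gene Tgfb1 was the highest of the 10. It stood at 413.82, 407.3 and 455.47 TPM in replicates 1, 2 and 3 (426 ± 26.1), from 8485, 8238 and 9192 reads, which placed it 295th of all listed genes and at percentile 98.2. Replicate 3 was the highest library, 1.11 times the mean of the other two, and the remaining libraries lay close together. Tgfb1 (Entrez gene 21803) lies on chromosome 7 from 25687002 to 25705077. Its coefficient of variation over depth-scaled reads was 5.52%, which is 5.13 times what counting error alone gives, the largest such ratio of the 10 genes.

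The summed levels of 5 marker lists of other cells were also highest in replicate 3. These were macrophages, platelets, and NK cells and ILC1s (7.8, 9.65 and 10.96 TPM in replicates 1 to 3), with B cells and fibroblasts. The B cell list had 23.99, 22.55 and 25.31 TPM, mostly from 1 gene. The fibroblast list had 0.39, 0.36 and 0.41 TPM, from 6 genes that were all below 1 TPM in every library. The T cell, endothelial, epithelial, and eosinophil and mast cell lists were not highest in replicate 3. Most of the sum came from 1 gene in the macrophage list (Chil3) and in the T cell, endothelial, and eosinophil and mast cell lists. Those sums therefore say little on the other genes of these lists. Of the 9 macrophage genes with a mean of at least 1 TPM, 9 were highest in replicate 3, and the median ratio of replicate 3 to the mean of replicates 1 and 2 was 1.40. Chil3, whose chitinase-like product marks alternatively activated macrophages, had a ratio of 1.39, and the lysozyme gene Lyz2 had 1.33. The macrophage receptor genes Adgre1 and Mertk were below 1 TPM in every library but not at 0. The 5 platelet genes summed to 3.53, 3.94 and 5.09 TPM. The largest part came from Gp1ba, the detected gene of this list, at 1.77, 1.95 and 2.55 TPM. Pf4, the platelet chemokine, was flat at 0.77, 0.78 and 0.78 TPM (0.777 ± 0.0058). It rested on 4, 3.98 and 4 reads, so its small SD does not show a precise level. Macrophages and platelets are known sources of Tgfb1 transcript, and the part of their RNA in the Tgfb1 level was not tested. In RNA from a whole sorted sample, fewer cells of a type and less RNA per cell cannot be told apart. Tgfb1 was lowest in replicate 2, at 407.3 TPM. The macrophage sum was lowest there too, through Chil3 (337.6, 326.62 and 461.15 TPM in replicates 1 to 3). Lyz2 was instead lowest in replicate 1 (33.1, 37.37 and 46.75 TPM), and the other genes of the list were divided between replicates 1 and 2. A link between these genes and Tgfb1 was not tested. Among the 9 detected members, 6 were highest in replicate 3, beside 40% of all 11042 genes with a mean of at least 1 TPM.

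**Figure D2:**
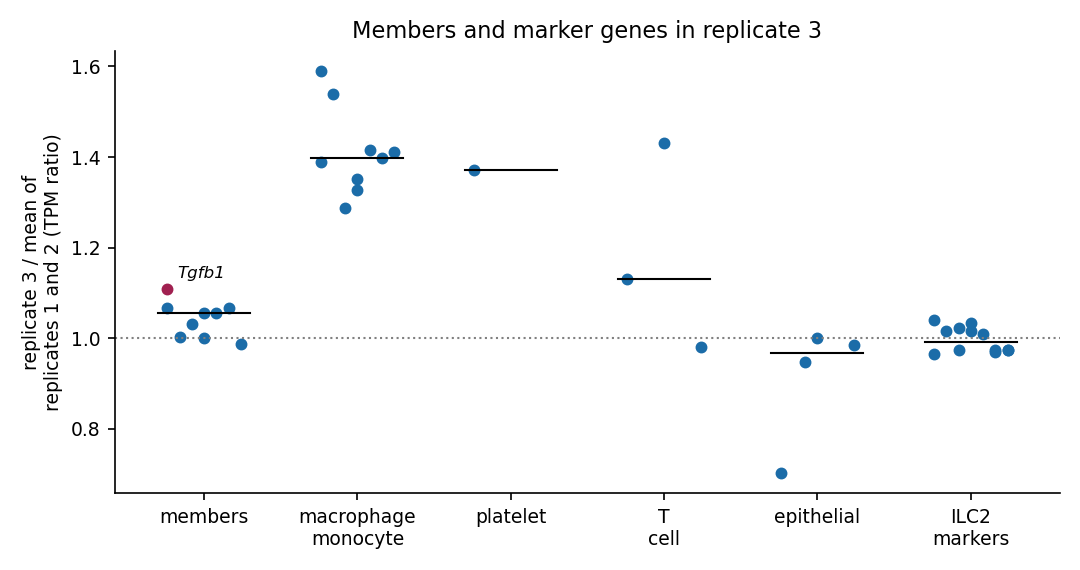
Ratio of the TPM in replicate 3 to the mean of replicates 1 and 2, 1 point per gene with a mean of at least 1 TPM, with the median of each list as a bar. Tgfb1 (red) is at 1.11, above the other members and below each of the 9 macrophage genes.

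Other ligands were far lower. Tgfb1 exceeded Tgfb3 (7.08 ± 0.894 TPM), a ligand for the same receptors, by 5.73 ± 0.15 on the log2(TPM + 1) scale (SD, n = 3 libraries), which is 52.9-fold on the TPM + 1 scale. Tgfb2, the remaining TGF-beta isoform and a gene named after its values were seen, had 0.04, 0.04 and 0.02 TPM. Of 13 other ligand genes listed, 4 were detected, namely Bmp7, a bone morphogenetic protein (50.3 ± 0.932), Gdf11, an activin-like ligand (7.60 ± 0.537), Tgfb3 and Inha, an inhibin subunit (1.25 ± 0.217). Bmp1, a protease in spite of its name, and the ligand genes Bmp2, Bmp4 and Bmp6 were below 1 TPM in every library.

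Genes that process and release latent TGF-beta were uneven in level. Of 14, 8 were detected. Furin, the protease that cleaves the TGF-beta propeptide, stood at 712.98, 737.76 and 746.74 TPM, above Tgfb1 in every library. The integrin chain gene Itgb3 had 375.01, 402.4 and 406.49 TPM, and its partner in the TGF-beta-binding integrin, Itgav, a gene named after its values were seen, had 43.6 ± 1.77. Nrros, which encodes a protein that tethers latent TGF-beta on immune cells, was at 90.0 ± 2.66, while Lrrc32 (GARP), its relative on regulatory T cells, was at 0.0833 ± 0.085. The integrin chains Itgb6 and Itgb8, both known activators of latent TGF-beta, and the latent TGF-beta-binding protein gene Ltbp1 were below 0.1 TPM in each library.

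The signalling receptors were both detected and were unequal. Tgfbr2 stood at 310.45, 328.82 and 320.02 TPM (320 ± 9.19) from 14059 to 14696 reads, the most of any member, at percentile 97.5 of listed genes. Tgfbr1 stood at 26.74, 27.45 and 28.89 TPM (27.7 ± 1.10) from 1459 to 1551 reads, at percentile 65.9. The lowest Tgfbr2 library was far above the highest Tgfbr1 library. Tgfbr2 exceeded Tgfbr1 by 3.48 ± 0.055 (11.2-fold) in log2(TPM + 1), with the same sign in 3 of 3 libraries. An exact permutation test (sign flips, two-sided) cannot fall below p = 0.25 with 3 libraries. It gave that value for each of the 12 differences between genes, and Benjamini-Hochberg adjustment over them left it at 0.25. The size depends on the transcript length used. The deposited reads and FPKM imply an effective length of 4698 bases for Tgfbr2, while its longest protein-coding transcript in the GENCODE M21 annotation has 8092. With GENCODE lengths, an alternative chosen after seeing the data, the difference was 2.73 ± 0.057 (6.65-fold). Tgfbr2 (21813) lies on chromosome 9 from 116087695 to 116175363, and Tgfbr1 (21812) on chromosome 4 from 47353222 to 47414926.

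The co-receptor gene Tgfbr3 was the 1 member that was not detected. Tgfbr3 encodes betaglycan, which presents ligand, above all the product of Tgfb2, to the type II receptor. It had 0.67, 0.77 and 0.75 TPM, from 39, 44.3 and 43 reads, so its level rests on few reads. Its coefficient of variation of 6.71% was below the 15.4% that counting error gives at this depth. Tgfbr1 exceeded it by 4.05 ± 0.044 on the log2(TPM + 1) scale. Tgfbr3 (21814) lies on chromosome 5 from 107106567 to 107289629. Of the other co-receptor genes, Eng (endoglin) stood at 32.6 ± 1.19 TPM, the decoy receptor gene Bambi at 7.35 ± 1.17, and Cd109, an inhibitory co-receptor, at 0.02 ± 0.02.

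Receptors for activins and bone morphogenetic proteins (BMPs), which use the same design of type I and type II kinases, were also present. Of the other type II genes, Acvr2a (28.3 ± 0.545 TPM) and the BMP receptor gene Bmpr2 (20.8 ± 1.01) were detected, while Acvr2b and Amhr2 were below 1 TPM in every library. Acvr1b, the activin type I receptor, stood at 74.49, 74.86 and 73.81 TPM, above Tgfbr1 in every library. Acvr1 (11.3 ± 0.978) and Bmpr1a (9.22 ± 0.289) were lower, and Acvr1c and Acvrl1 were below 1 TPM in every library. The mean log2 level of Tgfbr1 and Tgfbr2 exceeded that of Bmpr1a and Bmpr2 by 2.68 ± 0.035 (6.42-fold on the TPM + 1 scale), in 3 of 3 libraries. Most of this difference came from Tgfbr2, whose mean log2(TPM + 1) was 8.32. Tgfbr1 had 4.84, nearer to Bmpr2 (4.45) and Bmpr1a (3.35). With GENCODE lengths, which lower Tgfbr2, the difference was 2.48.

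Among the receptor-regulated Smads of TGF-beta, Smad3 was higher than Smad2. Smad3 stood at 52.7, 57.43 and 58.76 TPM (56.3 ± 3.19), from 2562 to 2812 reads, and Smad2 at 16.05, 16.66 and 17.28 TPM (16.7 ± 0.615), from 1351 to 1418 reads. Both were lowest in replicate 1 and highest in replicate 3, and their ranges did not overlap. Smad3 exceeded Smad2 by 1.70 ± 0.037 in log2(TPM + 1) (3.24-fold) and made up 76.7%, 77.5% and 77.3% of their summed TPM. By reads, which are not corrected for length, the share of Smad3 was 66.1%. Smad3 (17127) lies on chromosome 9 from 63646766 to 63757994, and Smad2 (17126) lies on chromosome 18, as do Smad4 (17128) and Smad7 (17131).

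The Smads of the BMP branch were lower. Smad1 had 12.6 ± 1.55 TPM, Smad5 had 12.0 ± 0.707, and Smad9 was below 1 TPM in every library. The mean log2 level of Smad2 and Smad3 exceeded that of Smad1 and Smad5 by 1.26 ± 0.077 (2.40-fold). Within it, Smad2 lay nearer to the BMP Smads than Smad3 did: its lowest library, at 16.05 TPM, was above the highest of Smad1, at 13.9 TPM.

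Smad4, the common partner of both branches, was the member whose level depended most on the annotation. It stood at 27.63, 28 and 29.36 TPM (28.3 ± 0.911), from 1960 to 2048 reads, and lay below Smad3 by 0.97 ± 0.053 in log2(TPM + 1), in each of the 3 libraries. The deposited values imply an effective length of 7358 bases for Smad4, 2.17 times the 3384 bases of its longest protein-coding transcript in GENCODE M21. Of 10740 genes with at least 1 TPM compared in this way, 2.40% had a ratio over 1.5. With GENCODE lengths Smad4 came to 73.3 ± 2.15 on the same scale of 1000000 transcripts and Smad3 to 66.2 ± 3.59, so that Smad4 was higher by 0.15 ± 0.049 in 3 of 3 libraries and the direction reversed. For the 8 members other than Smad4 and Tgfbr2, the ratio of the 2 lengths was between 0.977 and 1.08. With GENCODE lengths Tgfbr2 (221 ± 6.43) also came to overlap Skil (229 ± 2.02).

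The inhibitory Smads were far apart in level. Smad7, which blocks the type I receptor and is itself a known TGF-beta target, stood at 45.66, 46.77 and 46.32 TPM (46.3 ± 0.558). Its libraries differed by less than counting error gives, with a coefficient of variation of 1.04% against 2.30%. Smad6, which acts mainly on BMP signals, had 0.35, 0.23 and 0.35 TPM. Smad7 exceeded Smad6 by 5.17 ± 0.092 on the log2(TPM + 1) scale, and the size of this difference between a detected and an undetected gene depends on the scale, with 4.33 by FPKM and 6.84 when the pseudocount is 0.1. Smad7 lay below Smad3 by 0.28 ± 0.068 in 3 of 3 libraries. Of the summed TPM of all 8 Smads, Smad3 made up 32.6 ± 0.55%, Smad7 26.8 ± 0.839%, Smad4 16.4 ± 0.434% and Smad2 9.66 ± 0.149%, all with the deposited lengths.

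**Figure D3:**
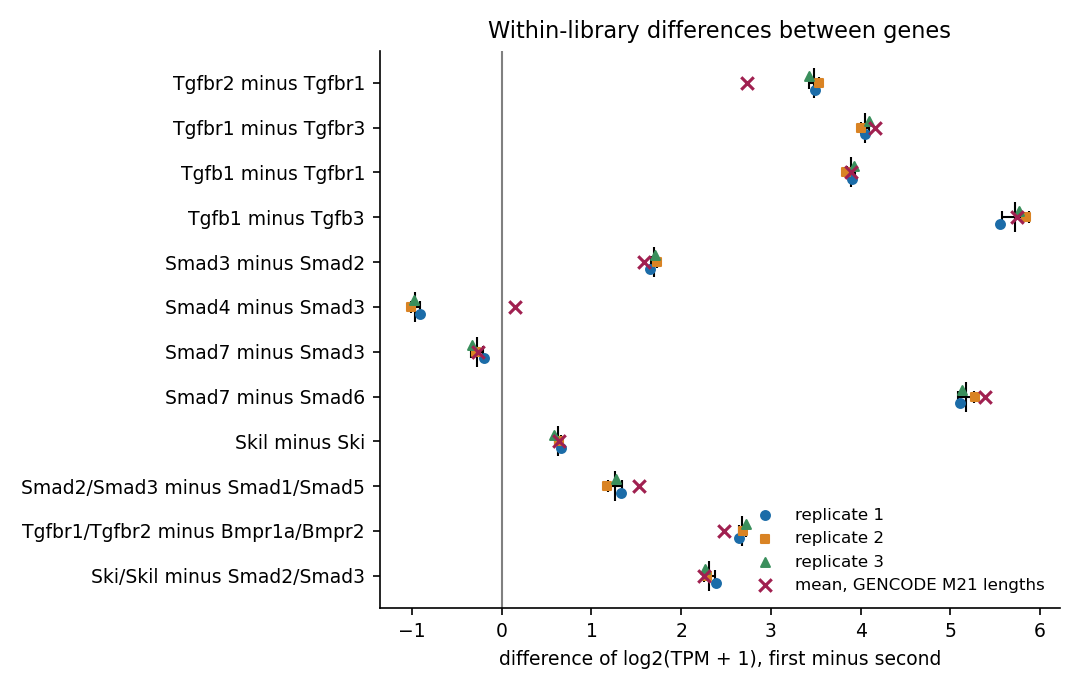
Difference of log2(TPM + 1) between genes or pairs of genes in each of the 3 libraries (points), with the mean and SD in black and the mean with GENCODE M21 lengths as a cross. The cross lies on the other side of 0 from the points for Smad4 minus Smad3, at 0.15, and to the left of them for Tgfbr2 minus Tgfbr1, at 2.73.

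The repressor genes were higher than the Smads whose complexes they repress. Skil had 197.53, 195.2 and 193.78 TPM (196 ± 1.89), from 12159 to 12532 reads, and Ski had 125.09, 125.18 and 128.97 TPM (126 ± 2.21), from 6434 to 6621 reads. Skil was above Ski in every library, with coefficients of variation over depth-scaled reads of 1.58% and 1.22%. Skil exceeded Ski by 0.63 ± 0.037 in log2(TPM + 1) (1.54-fold) and made up 60.7 ± 0.617% of their summed TPM. The mean log2 level of Ski and Skil exceeded that of Smad2 and Smad3 by 2.32 ± 0.063 (4.98-fold), in 3 of 3 libraries. Skil (20482) lies on chromosome 3 from 31095058 to 31122923, and Ski (20481) on chromosome 4 from 155154075 to 155222535. Skil had more reads than Tgfb1 and a lower TPM, since its effective length was 6606 bases against 2126.

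Across the rest of the pathway, 57 of 86 other listed genes were detected, beside 67.3% of all listed genes. Their median was 11.8 TPM, beside 11.2 for all listed genes. The counts of detected genes in each role list are to be read beside the same share. The other co-repressors were all detected, led by Tgif1 (63.5 ± 4.24), a homeodomain repressor of Smad complexes, and Zeb1 (23.7 ± 0.085). Of 5 coactivators and partners 4 were detected, with the acetyltransferase genes Ep300 at 29.5 ± 1.42 and Kat2b at 25.9 ± 1.03, while Foxh1, a partner of Smads in embryos, was below 1 TPM in every library. All 12 ubiquitin and phosphatase regulators were detected, led by the deubiquitinase gene Usp4 (87.4 ± 0.735), the ubiquitin ligase gene Wwp2 (77.4 ± 5.67) and Usp15 (72.8 ± 3.23), a deubiquitinase of the type I receptor. Smurf2, a ubiquitin ligase that Smad7 brings to the receptor and a gene named after its values were seen, stood at 41.2 ± 1.48.

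Adaptors and the branch that bypasses Smads were mostly present. Fkbp1a, which encodes a protein that holds the type I receptor inactive, had 137 ± 5.003 TPM, and Strap, which assists Smad7, had 114 ± 2.89. Zfyve9 (SARA), which presents Smad2 and Smad3 to the receptor, and Dab2 were below 1 TPM in every library, while Zfyve16, a relative of Zfyve9, had 26.2 ± 0.782. All 6 genes of the branch through the kinase TAK1 were detected, with the TAK1 gene Map3k7 at 35.0 ± 0.802 and its adaptor gene Tab2 at 184 ± 2.97.

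Genes known to respond to TGF-beta in lymphocytes or other cells were divided. Of 12 listed, 8 were detected, 2 of them the members Smad7 and Skil, and the list's median was 24.6 TPM. Itgae, the CD103 chain that binds epithelial E-cadherin, was the highest at 985.74, 952.7 and 996.68 TPM. Ldlrad4, an inhibitor of Smad activation, had 301.6, 316.38 and 308.31 TPM, and Cdkn1a, a cell cycle inhibitor, had 54.1 ± 1.51. Pmepa1, another inhibitor of Smad activation and a gene named after its values were seen, had 51.9 ± 1.24. Itga1, the CD49a chain of resident lymphocytes, and Id1, an inhibitor of basic helix-loop-helix factors, were below 1 TPM in every library. These levels do not measure signalling, since no library without TGF-beta was analysed here.

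**Figure D4:**
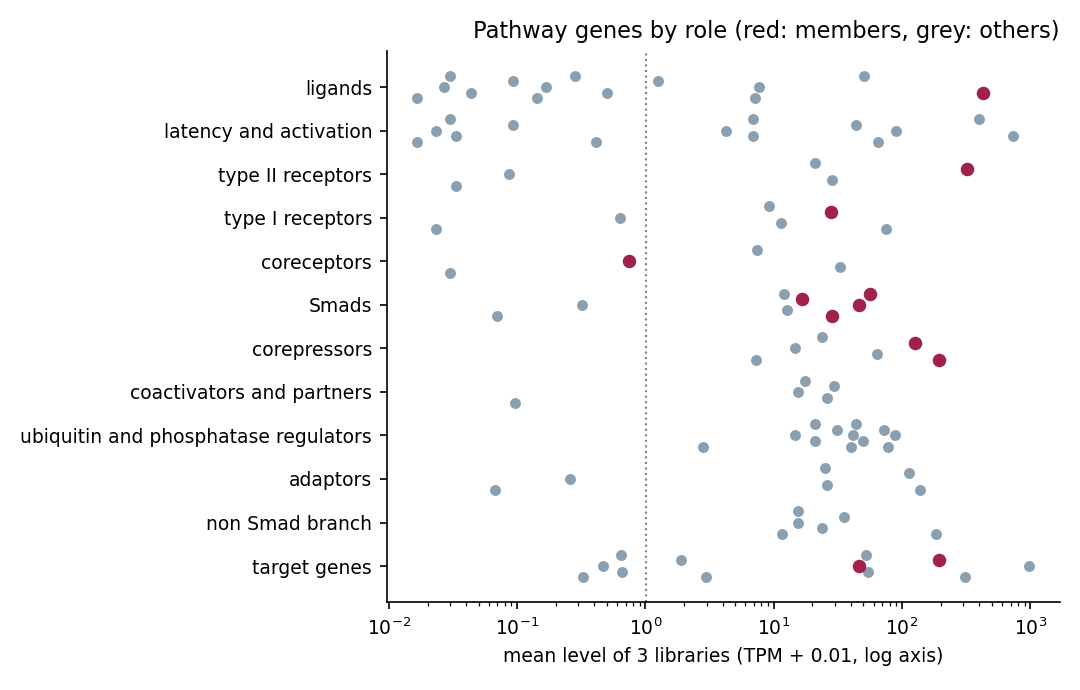
Mean level over 3 libraries of the listed pathway genes by role (TPM + 0.01, log axis), with the 10 members in red and other genes in grey, and a dotted line at 1 TPM. Tgfb1 and Tgfbr2 lead their roles and Skil and Ski lead the co-repressors, while Tgfbr1 lies below Acvr1b (74.4 TPM) and Tgfbr3 below Eng (32.6 TPM) and Bambi (7.35 TPM).

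The median spread of the 10 genes between libraries was near or below that of other genes, depending on the set compared. Their median coefficient of variation over depth-scaled reads was 2.40%, beside 4.40% for the 11274 genes with a mean of at least 20 reads, a set that holds all 10, and 3.01% for the 4461 genes with a mean of at least 1000 reads. The ratio to counting error had a median of 1.13 for the members, near the 1.16 of the first set, and 1.45 in the second, which leaves out Tgfbr3. Tgfb1, Tgfbr2 (2.94) and Smad3 (2.43) had the highest ratios, and Smad7 and Tgfbr3 the lowest (0.451 and 0.435). No gene was named for a pattern like that of a member, because 3 libraries of 1 group hold no pattern across conditions.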

How the data were processed

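RNA sequencing of 3 libraries of sorted lung ILC2s was analysed from 1 table. Bowtie2, RSEM 1.3.1 and the build GRCm38.p6 are named in the submitters' processing notes, without roles or settings. The sources used here do not state the annotation behind the gene lengths. Per the file headers, the authors deposited TPM, FPKM, expected counts (estimated reads, not all whole) and normalised read counts. This last signal, deposited by the authors, equalled the expected count rounded up and multiplied by 1.00144, 1 and 0.997 in replicates 1 to 3 and was used only for that check. Levels are TPM, with log2(TPM + 1) for differences, which understates ratios of low genes. Differences were taken within each library and tested with an exact sign-flip permutation test. Pairs of libraries differed by more than counting error (chi-square per gene of 2.48 to 3.47), so none was a duplicate. Gene IDs of all 10 members matched RefSeq, whose promoter table held 5 of them. No exon of a member was shared with another listed gene in GENCODE M21. The programs were tested on simulated data and run with Python 3.11.15 and pandas 2.3.3. The members, 12 role lists, 10 marker lists and 12 differences were chosen with earlier results of these data known. Named genes are the members, the genes of the differences, and in each list up to 4 highest genes and up to 4 below 1 TPM in every library in alphabetical order. Tgfb2, Inha, Itgav, Smurf2 and Pmepa1 fall outside this rule and were named after their values were seen. 1 gene that the rule names is not reported here.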

Additional observations from a re-analysis of the deposited data

How the results depend on the processing

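The 12 differences between genes were recomputed with a pseudocount of 0.1, with FPKM, with depth-scaled reads (not corrected for length) and without each library in turn. Of these 72 values, 0 changed direction, and the largest shift on leaving out 1 library was 0.084 on the log2 scale, for Tgfb1 minus Tgfb3. Leaving out a library could not change a direction, since each difference had the same sign in 3 of 3 libraries. For differences between single genes, FPKM and the other pseudocount could not either, since both keep the order of genes within a library. The count of 0 is therefore a check mainly for the reads without length correction. With GENCODE M21 lengths, chosen after seeing the data, 1 of 12 reversed: Smad4 minus Smad3 came to 0.15 in place of -0.97. The cause is the length used for Smad4, since the reads are the same. Reads without length correction gave a Smad3 share of 66.1% in place of 77.1% and a Skil share of 65.4% in place of 60.7%, and lowered Tgfb1 minus Tgfbr1 from 3.89 to 2.51. By FPKM, whose scale is lower, 2 of the 10 genes in place of 4 reached a mean of 100. The same count by FPKM was not taken over all listed genes. Detection at 0.5 TPM added Tgfbr3, which made 10 of 10, and detection at 5 TPM left 9. Of all 16129 listed genes, 11448 were detected at 0.5 TPM and 9285 at 5 TPM. Leaving out each library left 9 detected and 57 of the 86 other pathway genes detected, beside 10910 to 10920 of all 16129 listed genes. No pairing of samples between groups was possible because the series has 1 group. Depth limits Tgfbr3, with about 42.1 reads per library, and the genes below 1 TPM.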
